A study of Homo sapiens with 24 samples.

Results

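The translation initiation factor genes are the genes whose symbols begin with EIF1 to EIF6. They were followed in BT549, an established human triple negative breast cancer cell line, in 24 RNA sequencing libraries. The members were all listed symbols of that form, without the EIF2AK kinases and without symbols that end in P and digits, the form given to pseudogenes. This gave 48 genes of the 18154 named genes analysed. Of these, 45 code for protein and 3 are noncoding (EIF1AX-AS1, EIF1B-AS1 and EIF3J-DT). All 48 were listed in the inhibitor and the knockdown experiment, and the 45 coding genes in the MB-3 experiment. The name pattern also removed EIF4EBP1, EIF4EBP2 and EIF4EBP3, which code for proteins that bind eIF4E, and these are described with the regulators.

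The libraries form 8 groups of 3 that the labels call biological replicates, and the labels give the genotype of every sample as WT. In the knockdown experiment, cells had pooled siRNAs to MYC during 72 h (siMYC) and were set against a control named siCtl, whose duration the labels do not give. The inhibitor experiment crossed the MYC inhibitor KJ-PYR-9, given at 40 µM during 3 h, with a treatment named DEX, whose dose and duration the labels do not give. Its groups were KJ-PYR-9+DEX, KJ-PYR-9, DEX and vehicle (VEH). In the MB-3 experiment, 100 µM MB-3 for 3 h (MB3), an inhibitor of the acetyltransferase GCN5, was set against a vehicle of its own (VEH2). KJ-PYR-9 and MB-3 were dissolved in DMSO.

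Initiation of translation brings the small ribosomal subunit, the initiator tRNA and the mRNA together. The complex eIF2 carries the initiator tRNA as a GTP-bound complex, and eIF2B recharges eIF2 with GTP. The multi-subunit eIF3 coats the small subunit, eIF1 and eIF1A keep it open while it scans, and eIF4F, made of the cap-binding eIF4E, the scaffold eIF4G and the helicase eIF4A, recruits capped mRNA. Late steps use eIF5 and eIF5B, and eIF6 holds the large subunit apart until it is needed. MYC, which binds the E-box CACGTG, is known for raising the synthesis of ribosomes and of several initiation factors, EIF4E among them.

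Promoter sequences are shown because the MYC treatments bear on genes with and without the E-box. Of the 48 members, 41 had at least 1 entry among the RefSeq promoters of build GRCh38.p14, which run from 250 bases before the annotated start to 50 bases after it. EIF2S2, EIF3A, EIF3CL, EIF3E, EIF3G, EIF3H and EIF3L had no entry. Some genes have several listed promoters, and a gene was counted when any of them held the letters. The letters CACGTG, which read the same on both strands, stood in the window of 11 of the 41 members, or 26.8%, against 8.77% of 27305 genes with an entry. The 11 were EIF1B, EIF1B-AS1, EIF2B3, EIF3F, EIF3K, EIF4A3, EIF4B, EIF4E, EIF4G1, EIF4H and EIF5A2. The windows of EIF1B and EIF1B-AS1, on opposite strands, overlap and hold the same CACGTG, which was counted for each gene. The 27305 genes were not limited to those listed or expressed in these libraries. The 250 bases before the start are printed for a member of each eIF4F step: EIF4E on the minus strand at chr4:98929134-98929383, EIF4G1 on the plus strand at chr3:184314356-184314605 and EIF4B on the plus strand at chr12:53006206-53006455. Capitals mark each CACGTG.
EIF4E: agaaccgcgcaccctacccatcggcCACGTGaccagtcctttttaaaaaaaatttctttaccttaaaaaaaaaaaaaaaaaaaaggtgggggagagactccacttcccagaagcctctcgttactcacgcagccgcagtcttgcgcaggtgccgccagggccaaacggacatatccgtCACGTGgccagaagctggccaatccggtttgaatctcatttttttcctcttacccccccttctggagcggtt
EIF4G1: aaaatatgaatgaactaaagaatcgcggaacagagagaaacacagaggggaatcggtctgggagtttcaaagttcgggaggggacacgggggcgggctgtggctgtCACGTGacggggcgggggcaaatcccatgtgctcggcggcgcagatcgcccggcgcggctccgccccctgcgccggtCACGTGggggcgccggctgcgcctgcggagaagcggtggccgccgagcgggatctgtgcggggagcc
EIF4B: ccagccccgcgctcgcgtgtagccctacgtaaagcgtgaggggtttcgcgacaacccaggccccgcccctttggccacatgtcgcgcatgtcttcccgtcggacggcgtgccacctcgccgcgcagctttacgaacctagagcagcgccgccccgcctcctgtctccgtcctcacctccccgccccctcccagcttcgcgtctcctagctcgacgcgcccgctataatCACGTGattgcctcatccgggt
The first letter of the motif lay 225 and 72 bases before the start in EIF4E, 144 and 67 bases before it in EIF4G1, and 22 bases before it in EIF4B. A match is a description of the letters and does not show that a factor was bound.

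Many genes of the translation machinery begin their mRNA with a C and a run of pyrimidines, which links their translation to mTOR signalling. A C followed by at least 4 pyrimidines, with the C within 5 bases of the annotated start on the gene's own strand, was found in 17 of the 41 members, or 41.5%, against 25.2% of all genes with an entry. Both features stood in the same promoter in EIF3F, EIF3K, EIF4B and EIF5A2, and in separate listed promoters in EIF4G1. The windows of 30 bases below show the run for 4 members whose values are given later, with the run in capitals and the annotated start at the 11th base. All 4 are on the plus strand, at chr12:53006446-53006475 for EIF4B, chr11:7987327-7987356 for EIF3F, chr3:186783567-186783596 for EIF4A2 and chr19:38619178-38619207 for EIF3K.
EIF4B start: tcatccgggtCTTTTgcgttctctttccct
EIF3F start: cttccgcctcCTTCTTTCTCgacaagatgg
EIF4A2 start: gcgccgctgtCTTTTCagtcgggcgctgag
EIF3K start: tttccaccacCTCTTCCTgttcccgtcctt

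The files held 5581666 to 30758107 reads a library. In the inhibitor experiment, features without a symbol took 26.0% of the reads of DEX 1 and 8.72% of KJ-PYR-9+DEX 3, against 1.62% to 5.44% in its other libraries. VIM, a mesenchymal marker, had normalized counts of 9614 to 29321, and PTPRC, a leukocyte marker, 0 to 39.2 in the inhibitor and knockdown libraries. The siRNA target MYC had 1655, 1789 and 1710 in siMYC, against 2313, 2269 and 2138 in siCtl. Its log2 fold change was -0.38 ± 0.11 (SE), with an adjusted p of 0.0587 in limma, and edgeR gave 0.0175. In the inhibitor experiment MYC transcript was higher than VEH in all 3 treated groups, with log2 fold changes of 1.25 with both agents, 2.49 with KJ-PYR-9 and 3.40 with DEX. In bulk libraries such as these, a change in the share of cells in some state and a change in RNA per cell cannot be told apart.

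Some members cannot be counted cleanly. EIF3C and EIF3CL are near-identical neighbours, and EIF3CL varied between 137 and 2622 normalized counts over all libraries, with 1178, 2622 and 351 in KJ-PYR-9 and 225, 732 and 236 in VEH. EIF5AL1 and EIF2S3B are close relatives of EIF5A and EIF2S3 and can take their reads. On the same strand, 48.6% of the exonic bases of EIF4A1 lie in other annotated genes, among them the read-through gene SENP3-EIF4A1. The same share was 41.1% for EIF3L, 17.4% for EIF6 and 10.5% for EIF4A2, whose introns hold small nucleolar RNA genes. Levels of these genes are therefore uncertain, and whether counting used strand is not given in the sources used here.

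In the controls, EIF5A, which helps ribosomes through difficult peptide bonds, was the most abundant member per length. It averaged 5926 ± 379 normalized counts per kb of annotated exon in siCtl, 4044 ± 407 in VEH and 4774 ± 192 in VEH2 (SD, n = 3 each). EIF3I, a peripheral eIF3 subunit, came next in all 3 controls, at 2448 ± 148, 1637 ± 192 and 1935 ± 115 per kb. EIF4G1 and EIF6 followed in VEH at 1505 ± 42.1 and 1287 ± 235 per kb, a gap within their SD. EIF4E stood last or next to last of the 45 coding genes in each control, at 76.6 ± 9.0 per kb in siCtl, 29.4 ± 4.1 in VEH and 41.3 ± 0.7 in VEH2. Lengths are those of all annotated exons merged, so a gene such as EIF4E, with long exons that not every transcript uses, is placed low. The helicase EIF4A2 stood far above EIF4A1 in VEH, at 229.8 ± 12.1 against 35.8 ± 3.4 per kb, where EIF4A1 carries the doubt named above. All 5 eIF2B genes were in the lower part of the order, from 49.2 ± 4.3 per kb for EIF2B5 to 130.8 ± 15.2 for EIF2B3 in VEH. The order was nearly the same in the 3 controls, with a Spearman rho across the 45 coding genes of 0.98 for each pair, which describes genes and not replicates.

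**Figure D1:**
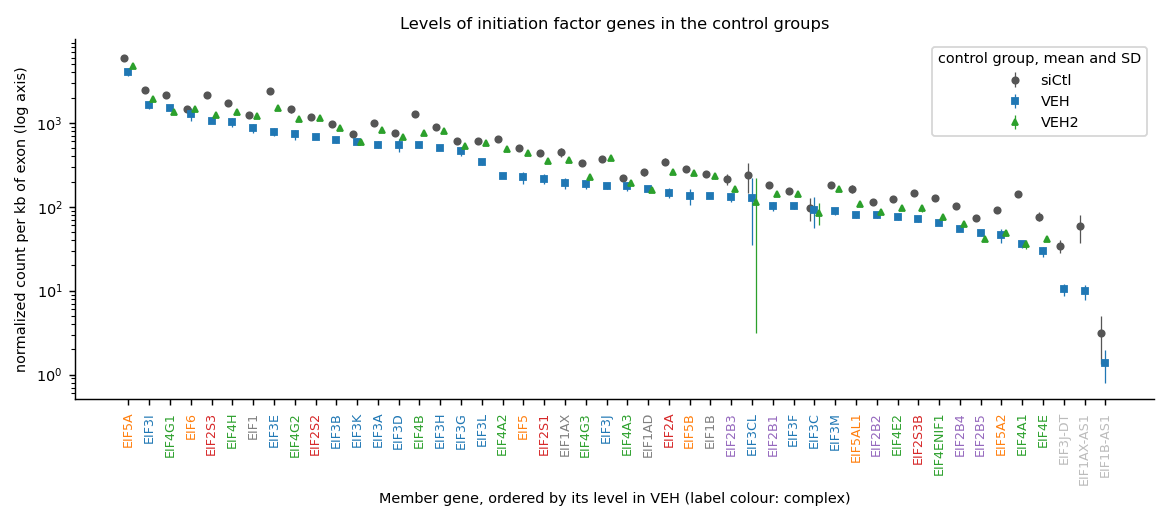
Levels of the members in the 3 control groups as normalized counts per kb of merged exon (log axis), ordered by VEH; points are means and bars the SD of 3 libraries. EIF5A is highest in each control and EIF4E, EIF4A1, EIF5A2 and EIF2B5 lie at the low end of the coding genes, while EIF3CL has the longest bars.

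After MYC siRNA, 3 of the 48 members fell and none rose. The 3 were EIF3E and EIF3L, subunits of eIF3, and EIF4B, which stimulates the eIF4A helicase. By limma at an adjusted p under 0.05, 11.4% of the 14788 genes tested were higher and 4.78% lower, so the share of members that fell in this test, 6.25%, was near that of all genes. The members' median log2 fold change was -0.16, against 0.05 over all genes tested, and 38 of the 48 lay below 0. At an unadjusted p under 0.05, 2 members were higher and 12 lower, where 22.1% of all genes were higher and 14.2% lower. The groups did not overlap for 25 members, beside 43.7% of all genes.

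EIF3E, a subunit known to contact eIF4G, had 9858, 6047 and 6124 normalized counts in siMYC, against 13481, 14216 and 15040 in siCtl. Every siMYC library lay below every siCtl library, and siMYC 1 was the closest to the control. Its log2 fold change was -0.99 ± 0.21 (SE, limma, adjusted p = 0.0281). EIF3L, a peripheral eIF3 subunit, had 1722, 1985 and 1415 in siMYC and 2422, 2712 and 2665 in siCtl, again without overlap. It fell by 0.62 ± 0.16 on the log2 scale (limma, adjusted p = 0.0424). The median over the 14 eIF3 genes was -0.31, and all 14 had a log2 fold change below 0, from -0.99 to -0.01.

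EIF4B, whose promoter is printed above, had 4818, 5647 and 4021 in siMYC, against 7584, 7776 and 8216 in siCtl. No siMYC library came within the range of the controls, and the fall was 0.72 ± 0.15 on the log2 scale (limma, adjusted p = 0.029). EIF4E had 1090, 971 and 859 in siMYC and 972, 1041 and 1218 in siCtl, which overlap (-0.15 ± 0.15, limma, adjusted p = 0.509). EIF4G1, the main scaffold, overlapped as well, with 14436, 18654 and 16742 in siMYC and 17061, 17011 and 19481 in siCtl. The eIF4F group of 11 genes holds, beside the subunits EIF4A1, EIF4A2, EIF4E, EIF4G1 and EIF4G3, the relatives and partners EIF4A3, EIF4B, EIF4E2, EIF4ENIF1, EIF4G2 and EIF4H. Its median was -0.11, with 1 lower, EIF4B, and 10 not called. Of the 11 members with CACGTG in the promoter window, EIF4B was the only one called in siMYC, and none of the 30 members with an entry and without the letters was called. The other called members, EIF3E and EIF3L, had no promoter entry and are in neither count. The median log2 fold change was -0.11 over the 11 members with the letters and -0.16 over the 30 without them.

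None of the 5 genes of the eIF2 group, the 5 eIF2B genes, the 4 eIF1 genes or the 6 genes of eIF5 and eIF6 passed the test in siMYC. The largest difference of all members was in EIF5B, the GTPase that joins the ribosomal subunits, with 1855, 566 and 984 in siMYC, against 2086, 2162 and 2354 in siCtl. The 3 siMYC libraries were far apart, and with a log2 fold change of -1.12 ± 0.40 it did not pass (limma, adjusted p = 0.0959). EIF1AX, which codes for the scanning factor eIF1A, had 1584, 1210 and 1095 in siMYC and 1792, 1940 and 2270 in siCtl (-0.64 ± 0.18, limma, adjusted p = 0.0549). EIF6 lay on the other side, with 2990, 3917 and 3179 in siMYC, above 2410, 2242 and 2550 in siCtl (0.48 ± 0.14, limma, adjusted p = 0.0661). EIF2A, an alternative carrier of initiator tRNA that is not a subunit of eIF2, had 1280, 1018 and 1066 in siMYC and 1324, 1375 and 1573 in siCtl (-0.35 ± 0.14, limma, adjusted p = 0.13). EIF2B2, the beta subunit of eIF2B, had 751, 763 and 744 in siMYC and 678, 615 and 588 in siCtl (0.27 ± 0.11, limma, adjusted p = 0.143).

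The knockdown calls depend on single libraries and on the test. None of the 3 calls stayed when siCtl 1, siCtl 2, siCtl 3 or siMYC 3 was left out, with 0 members called in each case. In these fits 2.59% to 3.35% of all genes were higher and 0.331% to 0.52% lower. Without siMYC 1, 8 members were called, 7 of them lower, where 12.5% of all genes were lower. On the recovered reads, edgeR called 11 members, 10 of them lower, where 8.24% of all genes were lower. DESeq2 called 15, 14 of them lower, where 11.9% of all genes were lower.

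**Figure D2:**
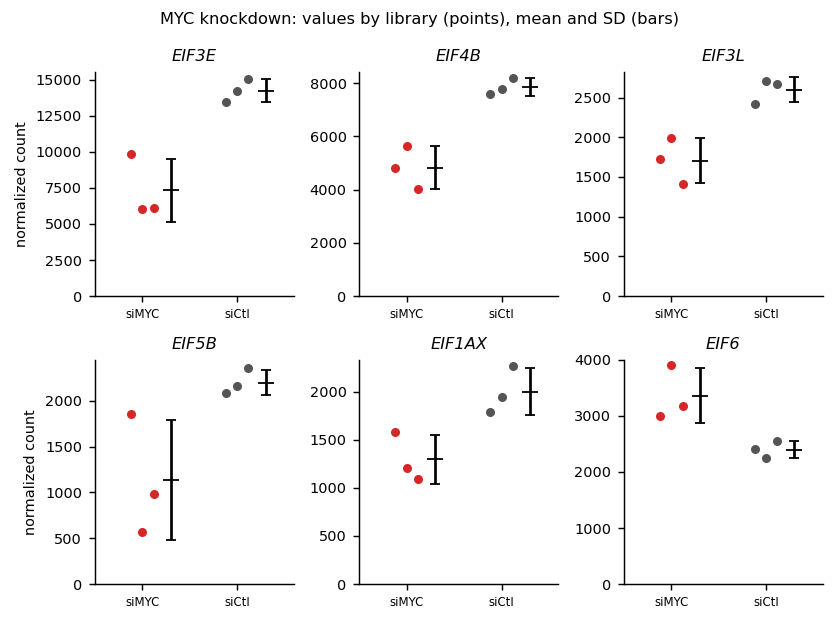
Normalized counts of 6 members in the 3 siMYC libraries (left, red) and the 3 siCtl libraries (right, grey), with the mean and SD as bars. EIF3E, EIF4B and EIF3L do not overlap between groups, EIF5B spreads from 566 to 1855 in siMYC, and EIF6 lies above its control.

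In the inhibitor experiment, KJ-PYR-9 moved the members in both directions, and the complexes did not move together. Of 46 members tested, 15 rose and 8 fell against VEH. EIF6 and 7 of the 14 eIF3 genes were among those that rose, and EIF4E, EIF2A and EIF5A2 among those that fell. By limma, 25.4% of the 13616 genes tested were higher and 17.5% lower in this contrast, against 32.6% and 17.4% of the members. The members' share that fell was near the background. Their median log2 fold change was 0.16, against 0.06 over all genes, and 36 of 46 did not overlap between the groups, beside 64.6% of all genes. With quantile scaling the split was 10 higher and 15 lower, with 20.8% of all genes higher and 22.9% lower. With the replicate block, described below for DEX, it was 18 higher and 13 lower, with 32.2% and 25.8% of all genes. EIF3E, EIF3L and EIF4A1 lost the call when any one of the 6 libraries was left out, and 12 of the 23 calls held in every such case, among them EIF4E, EIF5A2, EIF2B2 and EIF6.

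DEX called 5 members against VEH, 3 higher and 2 lower, where 9.5% of all genes were higher and 8.02% lower. The higher ones were EIF4A2, EIF3J and EIF2S2, and the lower ones EIF1AD and EIF4G1. Libraries of the same number tended to vary together in this experiment. With the replicate number as a block, 17 members were higher and 6 lower, where 23.9% of all genes were higher and 19.6% lower. The median over the members was 0.14, against 0.02 over all genes. EIF1AD was the only one of the 5 that kept the call whichever library was left out. Without DEX 3 the count was 15, with 12 higher and 3 lower, where 14.55% of all genes were higher and 12.04% lower. With quantile scaling the split was 4 higher and 7 lower, with 9.08% and 13.6% of all genes.

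KJ-PYR-9+DEX called 10 members higher and 10 lower against VEH, with 18.4% and 18.2% of all genes called. Against DEX, it called 15 higher and 20 lower, with 33.6% of all genes higher and 35.1% lower. The members' median was 0.00 against VEH and -0.18 against DEX, and the medians of all genes were -0.00 and 0.00. These comparisons share VEH or DEX libraries with each other, so a gene that is off in a shared control moves in all of them. Without DEX 1 and KJ-PYR-9+DEX 3, 26 members were called in KJ-PYR-9 against VEH, where 30.4% of all genes were higher and 23.8% lower. In DEX against VEH 7 were called, with 7.41% of all genes higher and 5.57% lower. In KJ-PYR-9+DEX the count was 9 against VEH, with 11.8% and 9.87% of all genes, and 29 against DEX, with 25.3% and 27.8%. In KJ-PYR-9+DEX against VEH the count was 3 without VEH 1, where 5.57% of all genes were higher and 4.54% lower. It was 5 without KJ-PYR-9+DEX 3, with 7.97% and 7.43% of all genes, and 7 without VEH 2, with 9.68% and 8.1%. Quantile scaling gave 3 higher and 14 lower, with 16.6% and 18.1% of all genes. With the replicate block it was 12 higher and 16 lower, with 27.4% and 28.0% of all genes.

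**Figure D3:**
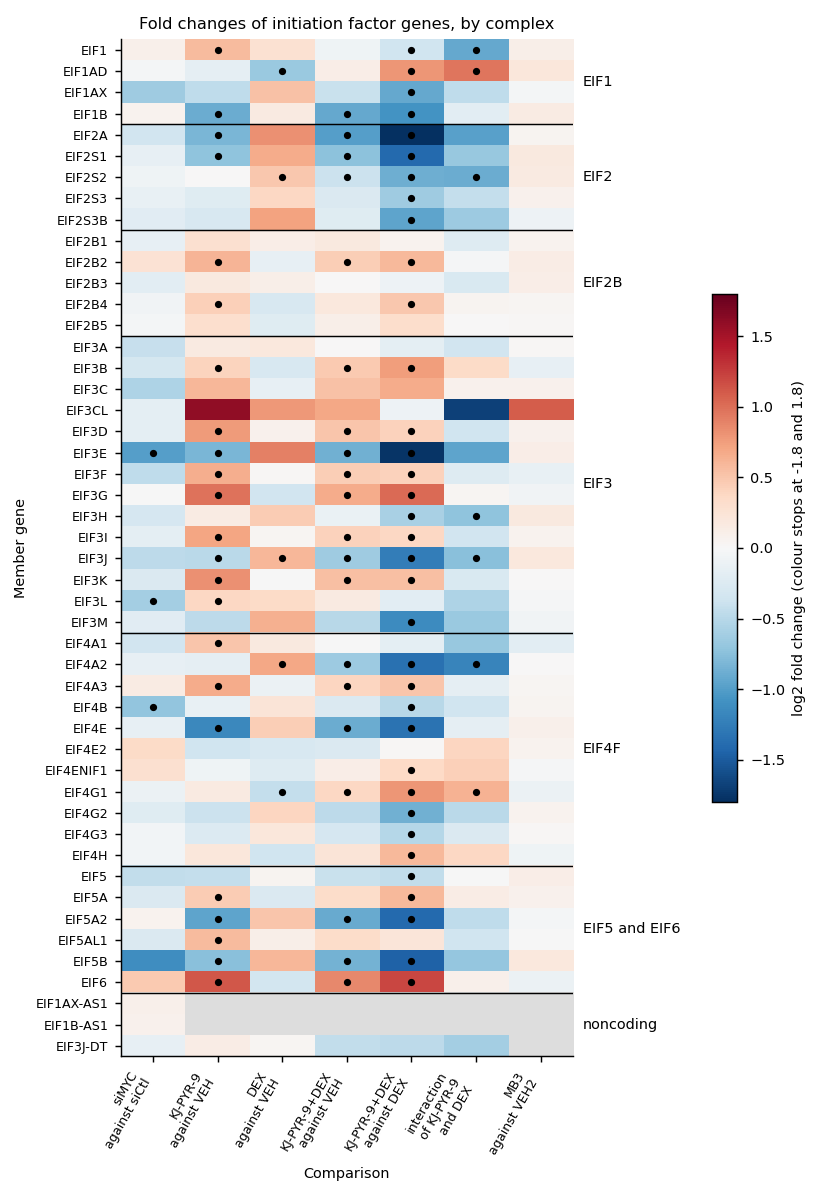
Log2 fold change of each member (rows, by complex) in 7 comparisons (columns), tested group over its control, with a dot where limma gave an adjusted p under 0.05 and grey where a gene was not tested. The EIF2 rows are blue in KJ-PYR-9+DEX against DEX, most EIF3 rows are red with KJ-PYR-9 except EIF3E, EIF3J and EIF3M, and the MB3 column is pale.

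The eIF2 group of 5 genes holds the 3 subunits of the carrier of initiator tRNA, EIF2S1, EIF2S2 and EIF2S3, the relative EIF2S3B, and EIF2A, which is not a subunit. In KJ-PYR-9 against VEH, 0 of 5 rose and 2 fell, EIF2S1 and EIF2A, with a median of -0.28. All 5 fell in KJ-PYR-9+DEX against DEX, with a median of -0.94, or -0.88 over the 3 subunits. DEX alone had 1 called, EIF2S2, and a median of 0.67 against VEH. EIF2S1, the alpha subunit that stress kinases phosphorylate, had 790, 933 and 509 in KJ-PYR-9+DEX, 763, 798 and 639 in KJ-PYR-9, 2279, 2083 and 1469 in DEX, and 1178, 1390 and 1061 in VEH. Both KJ-PYR-9 groups lay below VEH and DEX lay above it, with no overlap. It fell by 0.72 ± 0.23 in KJ-PYR-9 against VEH (limma, adjusted p = 0.0304) and by 1.40 ± 0.23 in KJ-PYR-9+DEX against DEX (limma, adjusted p = 0.000514), and its 0.67 ± 0.23 in DEX did not pass (limma, adjusted p = 0.0692), but did with the replicate block (limma, adjusted p = 0.00609).

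EIF2S2, the beta subunit, had 1372, 1601 and 1197 in KJ-PYR-9+DEX, 1836, 1922 and 1704 in KJ-PYR-9, 2630, 2743 and 2296 in DEX, and 1753, 1754 and 1937 in VEH. KJ-PYR-9 alone overlapped VEH, while KJ-PYR-9+DEX was below every other library of the 4 groups. The log2 fold changes were 0.00 ± 0.14 in KJ-PYR-9 against VEH, 0.49 ± 0.14 in DEX against VEH and -0.88 ± 0.14 in KJ-PYR-9+DEX against DEX, with limma adjusted p of 0.98, 0.0327 and 0.00034. EIF2A had 351, 412 and 191 in KJ-PYR-9+DEX, 327, 400 and 298 in KJ-PYR-9, 1284, 1181 and 786 in DEX, and 672, 636 and 510 in VEH. Its fall of 1.81 ± 0.28 on the log2 scale in KJ-PYR-9+DEX against DEX was the largest of the members (limma, adjusted p = 0.000361). EIF2S3, the gamma subunit that binds GTP, fell by 0.64 ± 0.12 in that comparison, and its relative EIF2S3B by 0.94 ± 0.24.

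Of the 5 genes of eIF2B, the exchange factor that recharges eIF2, 2 rose and none fell in KJ-PYR-9 against VEH, with a median of 0.30, and KJ-PYR-9+DEX against DEX gave the same count with a median of 0.31. EIF2B2 had 588, 529 and 652 in KJ-PYR-9+DEX, 595, 681 and 704 in KJ-PYR-9, 439, 393 and 346 in DEX, and 437, 400 and 460 in VEH. Every library with KJ-PYR-9 was above every library without it. The rise was 0.61 ± 0.14 in KJ-PYR-9 against VEH and 0.59 ± 0.14 in KJ-PYR-9+DEX against DEX (limma, adjusted p = 0.0065 and 0.00312). EIF2B4, the delta subunit, had 353, 341 and 307 in KJ-PYR-9+DEX, 386, 407 and 389 in KJ-PYR-9, 207, 234 and 276 in DEX, and 300, 293 and 281 in VEH. It rose by 0.43 ± 0.13 in KJ-PYR-9 against VEH and by 0.49 ± 0.13 in KJ-PYR-9+DEX against DEX (limma, adjusted p = 0.0192 and 0.00572). EIF2B1, EIF2B3 and EIF2B5 were not called in any comparison, though with the replicate block EIF2B1 and EIF2B5 passed in KJ-PYR-9 against VEH (limma, adjusted p = 0.0435 and 0.0238).

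Of the 14 eIF3 genes, 7 rose and 2 fell in KJ-PYR-9 against VEH, with a median of 0.50. EIF3K, a small peripheral subunit, had 2263, 2434 and 2628 in KJ-PYR-9+DEX, 2790, 3030 and 3083 in KJ-PYR-9, 1708, 1693 and 1599 in DEX, and 1485, 1757 and 1786 in VEH. Both groups with KJ-PYR-9 lay above both without it. The rise against VEH was 0.83 ± 0.12 in KJ-PYR-9 and 0.54 ± 0.12 in KJ-PYR-9+DEX (limma, adjusted p = 0.00119 and 0.0107). EIF3G, an RNA-binding subunit, had 2150, 2493 and 3074 in KJ-PYR-9+DEX, 2895, 3101 and 3496 in KJ-PYR-9, 991, 1403 and 1419 in DEX, and 1371, 1675 and 1776 in VEH. It rose by 0.98 ± 0.19 in KJ-PYR-9 against VEH and by 1.02 ± 0.19 in KJ-PYR-9+DEX against DEX (limma, adjusted p = 0.00326 and 0.000789). EIF3B, EIF3D, EIF3F, EIF3I and EIF3L were the other eIF3 genes that rose with KJ-PYR-9, by 0.38 to 0.77.

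EIF3E and EIF3J, the loosely held subunit that acts in ribosome recycling, fell with KJ-PYR-9, unlike the 7 eIF3 genes that rose. EIF3E had 3326, 3455 and 1523 in KJ-PYR-9+DEX, 2742, 2933 and 2358 in KJ-PYR-9, 10647, 9543 and 6757 in DEX, and 4883, 5169 and 4140 in VEH. KJ-PYR-9 with or without DEX was below every VEH library, and DEX above every one. The fall was 0.82 ± 0.29 in KJ-PYR-9 against VEH (limma, adjusted p = 0.04) and 1.76 ± 0.29 in KJ-PYR-9+DEX against DEX (limma, adjusted p = 0.00046), and the 0.91 ± 0.29 in DEX against VEH missed the threshold (limma, adjusted p = 0.0518), which it passed with the replicate block (limma, adjusted p = 0.00671). EIF3J had 355, 427 and 307 in KJ-PYR-9+DEX, 393, 456 and 359 in KJ-PYR-9, 909, 893 and 765 in DEX, and 548, 611 and 528 in VEH. It fell by 0.48 ± 0.15 in KJ-PYR-9, rose by 0.60 ± 0.15 in DEX and fell by 0.64 ± 0.15 in KJ-PYR-9+DEX, each against VEH (limma, adjusted p = 0.0264, 0.0243 and 0.0134).

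Against DEX, KJ-PYR-9+DEX raised 6 of the 14 eIF3 genes and lowered 4, EIF3E, EIF3H, EIF3J and EIF3M. EIF3H had 3147, 3412 and 2453 in KJ-PYR-9+DEX, 3536, 3829 and 3379 in KJ-PYR-9, 4744, 4808 and 3857 in DEX, and 3137, 3399 and 3160 in VEH. KJ-PYR-9 alone overlapped VEH, and KJ-PYR-9+DEX lay below DEX, with a fall of 0.58 ± 0.15 (limma, adjusted p = 0.00509). EIF3A, the largest subunit and scaffold of eIF3, was not called in any comparison without the replicate block, with 3859, 4117 and 3795 in KJ-PYR-9+DEX, 4365, 4452 and 4296 in KJ-PYR-9, 4515, 4647 and 4168 in DEX, and 3741, 4326 and 3653 in VEH. EIF3C and EIF3CL were not called, with standard errors of 0.44 and 0.81 in KJ-PYR-9 against VEH, where EIF3CL passed with the block (limma, adjusted p = 0.00815).

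In eIF4F, EIF4E, the cap-binding subunit, had 265, 249 and 165 in KJ-PYR-9+DEX, 186, 237 and 139 in KJ-PYR-9, 641, 682 and 395 in DEX, and 437, 456 and 347 in VEH. All 6 libraries with KJ-PYR-9 were below all 6 without it. EIF4E fell by 1.16 ± 0.27 in KJ-PYR-9 against VEH (limma, adjusted p = 0.0071), by 0.89 ± 0.27 in KJ-PYR-9+DEX against VEH (limma, adjusted p = 0.0274) and by 1.32 ± 0.27 in KJ-PYR-9+DEX against DEX (limma, adjusted p = 0.00136). EIF4G1 had 15437, 16265 and 16583 in KJ-PYR-9+DEX, 14000, 13788 and 13993 in KJ-PYR-9, 8777, 9305 and 9709 in DEX, and 12182, 12824 and 12272 in VEH. The 4 groups did not overlap, with DEX lowest and KJ-PYR-9+DEX highest. It fell by 0.42 ± 0.10 in DEX against VEH and rose by 0.80 ± 0.10 in KJ-PYR-9+DEX against DEX (limma, adjusted p = 0.0198 and 0.000168), and its 0.16 ± 0.10 in KJ-PYR-9 against VEH did not pass (limma, adjusted p = 0.203). EIF4G3, the other scaffold that binds eIF4E, fell by 0.51 ± 0.12 in KJ-PYR-9+DEX against DEX (limma, adjusted p = 0.0031).

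EIF4A2, whose start is printed above, had 1157, 904 and 682 in KJ-PYR-9+DEX, 1285, 1220 and 1262 in KJ-PYR-9, 2465, 2255 and 2120 in DEX, and 1485, 1336 and 1408 in VEH. It rose by 0.69 ± 0.17 in DEX and fell by 0.66 ± 0.17 in KJ-PYR-9+DEX, each against VEH, and fell by 1.35 ± 0.17 in KJ-PYR-9+DEX against DEX (limma, adjusted p = 0.0215, 0.0174 and 0.000162). EIF4A3, the helicase of the exon junction complex, rose by 0.66 ± 0.13 in KJ-PYR-9 against VEH (limma, adjusted p = 0.0039). Of the eIF4F group of 11 genes, 2 rose, EIF4A1 and EIF4A3, and 1 fell, EIF4E, in KJ-PYR-9 against VEH. There were 4 that rose and 5 that fell in KJ-PYR-9+DEX against DEX, and of the 5 subunits 1 rose and 3 fell. EIF4B, which fell after MYC siRNA, had 3059, 3282 and 2140 in KJ-PYR-9+DEX, 3076, 3503 and 2597 in KJ-PYR-9, 3774, 4750 and 3337 in DEX, and 3261, 3602 and 3146 in VEH. KJ-PYR-9 overlapped VEH for EIF4B (-0.13 ± 0.19, limma, adjusted p = 0.584).

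Among the late factors, EIF6 had 2961, 3617 and 5061 in KJ-PYR-9+DEX, 4091, 4475 and 4923 in KJ-PYR-9, 1168, 1919 and 1975 in DEX, and 1668, 2224 and 2405 in VEH. Every library with KJ-PYR-9 was above every library without it. The rise of 1.11 ± 0.25 was the largest called in KJ-PYR-9 against VEH (limma, adjusted p = 0.00614), and in KJ-PYR-9+DEX against DEX it was 1.20 ± 0.25 (limma, adjusted p = 0.0015). EIF5B had 752, 653 and 387 in KJ-PYR-9+DEX, 613, 673 and 563 in KJ-PYR-9, 1763, 1667 and 1326 in DEX, and 1222, 1167 and 785 in VEH. It lay lowest in the KJ-PYR-9 groups, with a fall of 0.75 ± 0.25 in KJ-PYR-9 against VEH and of 1.45 ± 0.25 in KJ-PYR-9+DEX against DEX (limma, adjusted p = 0.0317 and 0.000594). EIF5A2, the less abundant relative of EIF5A, had 144, 173 and 100 in KJ-PYR-9+DEX, 153, 126 and 118 in KJ-PYR-9, 369, 421 and 302 in DEX, and 231, 315 and 228 in VEH. It fell by 0.95 ± 0.22 in KJ-PYR-9 against VEH (limma, adjusted p = 0.00721), where EIF5A rose by 0.45 ± 0.14 (limma, adjusted p = 0.022).

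In the eIF1 group, EIF1 and EIF1B, close relatives that guard start codon choice, went opposite ways with KJ-PYR-9. EIF1 had 2580, 3212 and 3072 in KJ-PYR-9+DEX, 4497, 4890 and 4432 in KJ-PYR-9, 3563, 3961 and 3762 in DEX, and 2731, 3200 and 3453 in VEH. KJ-PYR-9 alone was highest, with a rise of 0.56 ± 0.13 against VEH (limma, adjusted p = 0.00778), and KJ-PYR-9+DEX overlapped VEH. EIF1B had 140, 195 and 88.4 in KJ-PYR-9+DEX, 133, 158 and 122 in KJ-PYR-9, 241, 369 and 261 in DEX, and 252, 265 and 247 in VEH. It fell by 0.89 ± 0.26 in KJ-PYR-9 and by 0.92 ± 0.26 in KJ-PYR-9+DEX, each against VEH (limma, adjusted p = 0.0182 and 0.0218). EIF1AD, named for its eIF1A-like domain, had 584, 555 and 635 in KJ-PYR-9+DEX, 484, 467 and 504 in KJ-PYR-9, 290, 381 and 355 in DEX, and 509, 561 and 558 in VEH. DEX was lowest without overlap, with a fall of 0.67 ± 0.13 (limma, adjusted p = 0.00735).

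**Figure D4:**
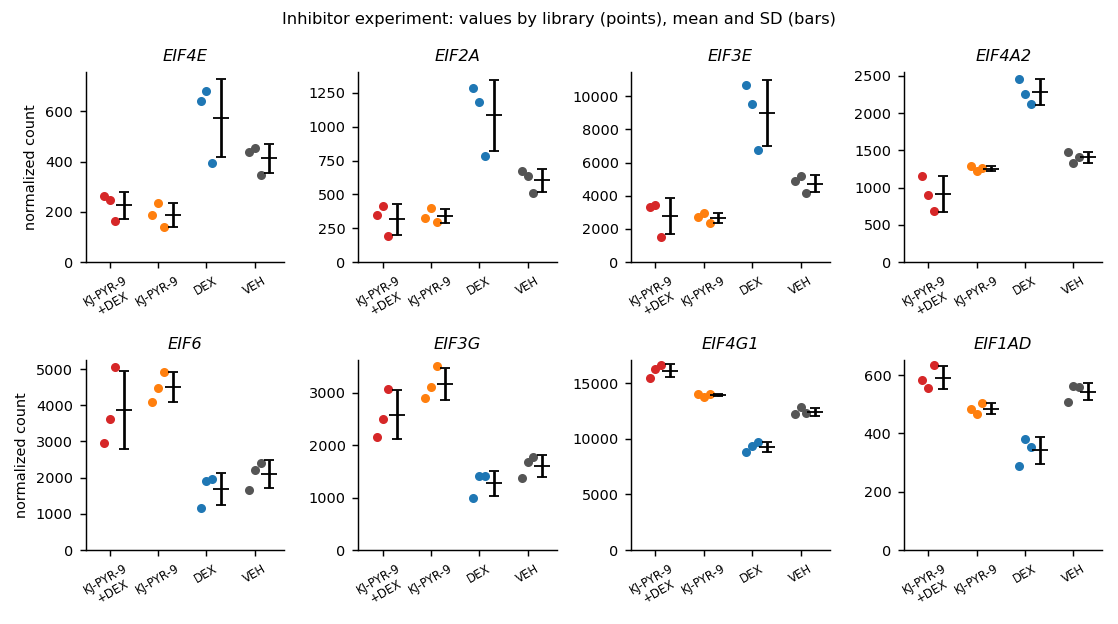
Normalized counts of 8 members in KJ-PYR-9+DEX, KJ-PYR-9, DEX and VEH, left to right, with 3 libraries a group as points and the mean and SD as bars. EIF4E, EIF2A and EIF3E are low in both KJ-PYR-9 groups and high in DEX, EIF6 and EIF3G are high in both KJ-PYR-9 groups, and EIF4G1 and EIF1AD are lowest in DEX.

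The interaction asks whether the effect of KJ-PYR-9 differed with DEX present, as the effect with DEX minus the effect without. It was called for 2 members above 0 and 5 below 0, where 7.15% and 9.62% of all genes were called, and 4 above and 14 below with the replicate block, where 1682 of the 13616 genes tested were above and 2717 below. EIF1AD and EIF4G1 were above 0, at 0.96 ± 0.18 and 0.63 ± 0.14 (limma, adjusted p = 0.00512 and 0.0133). EIF4A2 at -1.18 ± 0.24, EIF1 at -0.92 ± 0.19 and EIF2S2 at -0.89 ± 0.19 were below 0 (limma, adjusted p = 0.00755, 0.00764 and 0.0103), as were EIF3J at -0.76 ± 0.22 and EIF3H at -0.73 ± 0.21 (limma, adjusted p = 0.0355 and 0.0369). For EIF1 the KJ-PYR-9 effect was 0.56 without DEX and -0.35 with it, and for EIF4G1 it was 0.16 and 0.80. The members' median was -0.34, against -0.11 over all genes. The eIF2B genes had none called, with a median of -0.02, and EIF2B3 had the largest difference among them, at -0.28 ± 0.20 (limma, adjusted p = 0.387).

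The direction of the members in the inhibitor experiment followed the GC content of each gene's longest annotated transcript, as it did over all genes. In KJ-PYR-9 against VEH, Spearman's rho between log2 fold change and GC content was 0.74 across the 46 members and 0.72 across 13046 genes, which share libraries and are not replicates. The 15 members that rose had 40.6% to 60.3% GC, with a median of 51.0%, and the 8 that fell had 34.3% to 42.8%, with a median of 38.9%. In DEX against VEH the sign was reversed, at -0.75 and -0.68, and in KJ-PYR-9+DEX against DEX rho was 0.84 and 0.81. In siMYC it was 0.27 across the members and 0.40 across all genes.

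With the trends of GC content and length over all genes removed, 14 members were higher and 1 lower in KJ-PYR-9 against VEH, with 12.2% of all genes higher and 10.7% lower, and 11 of the 23 calls stayed. These were EIF1, EIF2B2, EIF3D, EIF3F, EIF3G, EIF3I, EIF3K, EIF4A3, EIF4E, EIF5AL1 and EIF6. EIF4E was the only one lower, at -0.62 (limma, adjusted p = 0.0317). EIF2S1 moved to -0.15 and EIF5A2 to -0.10, and neither was called. EIF3B, EIF3J and EIF5A turned their sign there, and EIF3J, EIF4G1 and EIF5A2 did in KJ-PYR-9+DEX against VEH, none of them called. Of the 20 calls in KJ-PYR-9+DEX against VEH, 4 stayed, EIF2B2, EIF3F, EIF3K and EIF4A3, all higher, and no lower call stayed. There 7.3% of all genes were higher and 4.53% lower. Of the 5 calls in DEX against VEH, EIF1AD alone stayed, where 4.73% of all genes were higher and 4.78% lower. In KJ-PYR-9+DEX against DEX, 9 of the 35 calls stayed, EIF2A, EIF2S2, EIF3E and EIF4G3 on the lower side and EIF1AD, EIF2B2, EIF3F, EIF4A3 and EIF6 on the higher. In all, 10 members were higher and 4 lower there, where 16.9% of all genes were higher and 15.3% lower. The sign turned for 10 of the 35 in that comparison, with EIF4G1 at -0.05, not called (limma, adjusted p = 0.802). EIF2S3, at 0.12, EIF3B, EIF3M, EIF4G2, EIF5, EIF5A and EIF5A2 turned as well, and none of them was called. EIF3H at 0.36 and EIF1AX at 0.63 were then called higher (limma, adjusted p = 0.0116 and 0.0166). All 3 siMYC calls stayed. Whether base composition moved with RNA quality or with library preparation was not tested.

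**Figure D5:**
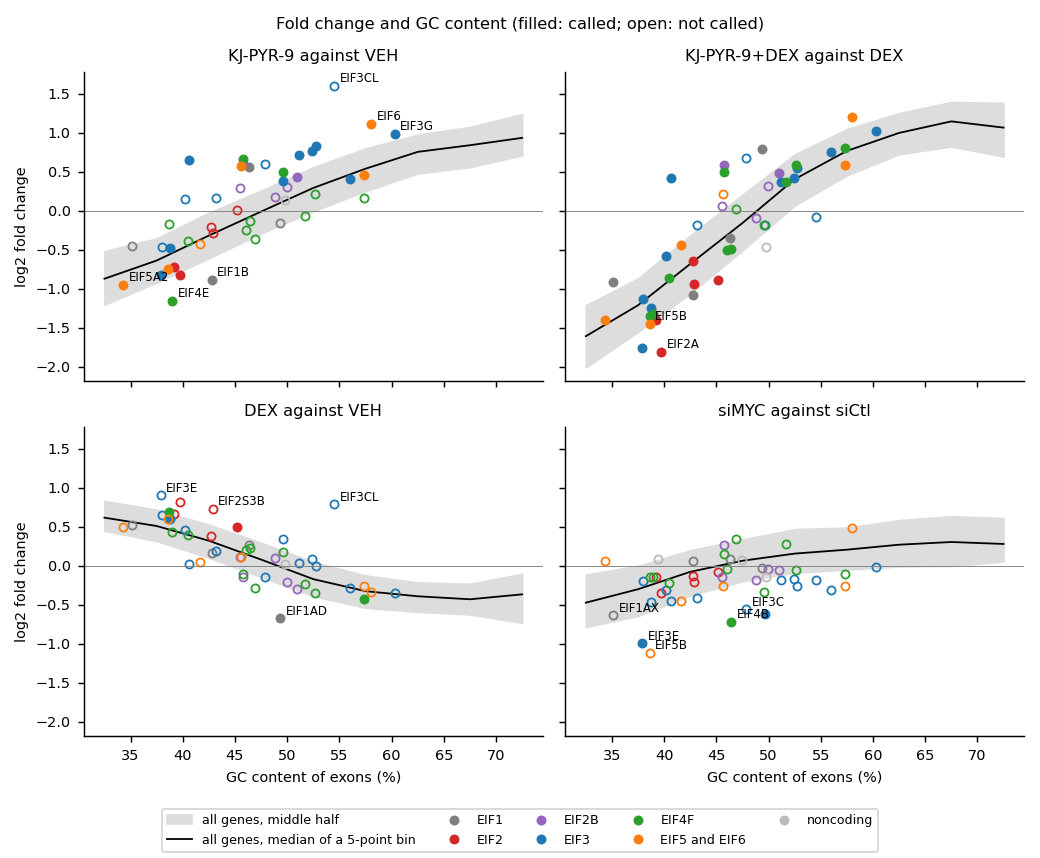
Log2 fold change of each member against the GC content of its longest annotated transcript (labelled GC content of exons) in 4 comparisons, coloured by complex, filled where called. The line is the median and the band the interquartile range of all genes in bins of 5 points of GC. Members with KJ-PYR-9 rise along the line from EIF4E and EIF5A2 to EIF6 and EIF3G, the slope is opposite in DEX against VEH, and EIF3E and EIF4B lie under the line in siMYC.

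No change of a member was detected in MB3. Of the 45 tested, limma, edgeR and DESeq2 each called 0, where limma called 0.0299% of 10048 genes higher and 0.0299% lower. At an unadjusted p under 0.05, 5 members were higher and 0 lower, where 5.64% of all genes were higher and 8.06% lower, and the members' median was 0.05, against 0.01 over all genes. EIF1AD came first by p, with 618, 643 and 579 in MB3, above 541, 530 and 517 in VEH2 (0.21 ± 0.07, limma, adjusted p = 0.318). EIF5B had 2253, 2356 and 2145 in MB3 and 1916, 2018 and 2012 in VEH2, also without overlap (0.18 ± 0.07, limma, adjusted p = 0.34). EIF2S1 had 2306, 2307 and 2090 in MB3 and 1906, 2037 and 1985 in VEH2 (0.18 ± 0.08, limma, adjusted p = 0.359), and EIF2B2 had 520, 527 and 493, against 457, 490 and 453 (0.14 ± 0.07, limma, adjusted p = 0.42). EIF4A1, with 131, 209 and 164 in MB3 and 174, 178 and 218 in VEH2, overlapped (-0.20 ± 0.17, limma, adjusted p = 0.601). EIF3CL had the largest difference of all, 1.09 ± 0.56, from 703, 465 and 510 in MB3 and 741, 170 and 137 in VEH2.

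Regulators and partners of initiation that are not members were followed as 6 lists of up to 49 tested genes. In siMYC, 4 of 49 rose and 5 fell, or 8.16% and 10.2%, where 11.4% of all genes were higher and 4.78% lower. None of these 9 calls held with each library left out in turn. EIF2AK2, the kinase PKR that phosphorylates eIF2 alpha, had 8345, 4260 and 7116 in siMYC, against 2722, 2599 and 2550 in siCtl, a rise of 1.27 ± 0.25 (limma, adjusted p = 0.0242). PPP1R15A, which directs the phosphatase that reverses it, had 1497, 1766 and 1679 in siMYC, against 996, 1125 and 1018 in siCtl, a rise of 0.65 ± 0.12. ABCE1, the ribosome recycling factor, fell by 1.21 ± 0.24 and PABPC1, the cytoplasmic poly(A) binding protein, by 0.65 ± 0.17.

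In KJ-PYR-9 against VEH, 17 of 48 of these genes rose and 11 fell, or 35.4% and 22.9%. Of all genes, 25.4% were higher and 17.5% lower. Of the 28 calls, 18 held with each library left out in turn. PPP1R15A had 4239, 3733 and 3842 in KJ-PYR-9, against 636, 883 and 967 in VEH, and EIF2AK2 had 962, 947 and 866, against 2948, 2512 and 2182. The log2 changes were 2.27 ± 0.19 and -1.45 ± 0.21 (limma, adjusted p = 6e-05 and 0.0012). Among the binding proteins that sequester eIF4E, EIF4EBP1 rose by 0.77 ± 0.17, a value that was -0.04 and not called after removal of GC and length trends. EIF4EBP2 fell by 0.76 ± 0.20, and PDCD4, an inhibitor of eIF4A, fell by 0.73 ± 0.18. EEF2, the translocation factor of elongation, rose by 1.34 ± 0.22. In KJ-PYR-9+DEX against DEX, 18 rose and 19 fell, or 37.5% and 39.6%, where 33.6% of all genes were higher and 35.1% lower. Of the 6 eIF2 kinases and phosphatase subunits 5 were lower, among them EIF2AK3 by 1.67 ± 0.16 and PPP1R15A by 1.13 ± 0.19. The interaction of PPP1R15A was -3.40 ± 0.26. Of the 37 calls in KJ-PYR-9+DEX against DEX, 29 held with each library left out. The interaction was called for 2 of these genes above 0 and 6 below, where 7.15% and 9.62% of all genes were called. Of these 8 calls, 6 held. In DEX against VEH 5 rose and 4 fell, of which 3 held, where 9.5% of all genes were higher and 8.02% lower. In KJ-PYR-9+DEX against VEH 11 rose and 8 fell, of which 2 held, where 18.4% of all genes were higher and 18.2% lower. Of the 37 calls in KJ-PYR-9+DEX against DEX, 10 turned their sign with GC and length trends removed. Of these, 2 were then called the other way, EIF4EBP1 at -0.44 and NCBP2 at 0.70 (limma, adjusted p = 0.00478 and 0.00336). The sign also turned for 2 calls in KJ-PYR-9 against VEH and 3 in KJ-PYR-9+DEX against VEH, none then called. In MB3 limma, edgeR and DESeq2 called 0 of 45. At an unadjusted p under 0.05 in limma, 5 were lower and 0 higher, where 8.06% of all genes were lower and 5.64% higher.

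Ratios of relatives within a library do not depend on the scaling of that library. A GC trend does not cancel where the genes of a pair differ in GC content, and it was not removed from the ratios. The longest annotated transcript had 34.3% GC in EIF5A2 and 57.3% in EIF5A, and 40.5% in EIF4G2 and 57.4% in EIF4G1. EIF1B and EIF1 lay closer, at 42.8% and 46.4%. Whether the ratios shifted beyond the GC trend was not tested, and ratios of other gene pairs were not counted. For 7 pairs in 6 comparisons, 25 of 42 ratios did not overlap between groups, each at an exact two-sided permutation p of 0.1, which is the smallest that 3 against 3 allows (0.168 after adjustment over the 42). EIF5A2 over EIF5A was 0.00994, 0.00743 and 0.00818 in KJ-PYR-9, against 0.0224, 0.025 and 0.0202 in VEH, a log2 difference of -1.41. EIF1B over EIF1 was 0.0296, 0.0323 and 0.0276 in KJ-PYR-9, against 0.0924, 0.0829 and 0.0715 in VEH, a log2 difference of -1.45. EIF4E2, a cap-binding relative that does not bind eIF4G, stood at 2.39, 2.01 and 2.59 times EIF4E in KJ-PYR-9, against 1.15, 1.21 and 1.7 in VEH.

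The 2 scaffold ratios shifted more between KJ-PYR-9+DEX and DEX than in any other comparison. The same held for every other pair except EIF1B over EIF1. The largest shift of all pairs there was EIF5A2 over EIF5A, at a log2 difference of -1.99. EIF4G2, which lacks the eIF4E binding site, over EIF4G1 was 0.311, 0.362 and 0.198 in KJ-PYR-9+DEX, against 0.988, 1.01 and 0.707 in DEX, a log2 difference of -1.66. EIF4G3 over EIF4G1 was 0.1, 0.0861 and 0.0802 in KJ-PYR-9+DEX, against 0.233, 0.216 and 0.21 in DEX. EIF4A2 over EIF4A1 was 4.26, 4.63 and 5.17 in KJ-PYR-9, against 7.5, 7.89 and 6.93 in VEH. In siMYC, EIF4E2 over EIF4E was the only ratio without overlap, at 0.987, 1.26 and 1.24 in siMYC, against 0.878, 0.836 and 0.756 in siCtl. In MB3 the only one was EIF4G3 over EIF4G1, at 0.223, 0.206 and 0.196 in MB3, against 0.187, 0.19 and 0.194 in VEH2. EIF2B4 over EIF2B5, subunits of a single complex, overlapped in all 6 comparisons.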

How the data were processed

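RNA was sequenced after depletion of ribosomal RNA, per the labels' protocols. The deposited signal of each library is a normalized count for each gene, and DESeq2, featureCounts, SAMtools, bcl2fastq and the build GRCh38 are named in the submitters' processing notes, while the aligner, annotation and versions are not given in the sources used here. Every value of the 24 libraries was a whole multiple, within 0.001, of 1 step per library (100% of values), so read counts were recovered for the count tests. Features that share a symbol were summed, and those without a symbol, 1.62% to 26.0% of the reads of the inhibitor libraries, were left out of the tests. In the MB-3 table the lowest gene mean was 83.9. The 3 experiments were normalized separately and each was tested alone. MB3 1 carries MED3 in its title and MB3 as its treatment, and was used as MB3.

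Genes with a mean of at least 10 were tested on log2(normalized count + 1) in R 4.3.3 by limma 3.58.1. Tests were two-sided, p was adjusted by Benjamini and Hochberg over all genes tested, and the threshold was 0.05. The 12 inhibitor libraries shared 1 fit. edgeR 4.0.16 and DESeq2 1.42.0 on the recovered reads were alternatives. Fold changes are on the log2(value + 1) scale, which understates low genes. Exon lengths, GC content and overlaps came from GENCODE annotation of GRCh38, and promoters from RefSeq. Lengths were those of merged exons, and GC content was that of the longest annotated transcript of each gene. P-values measure the spread between libraries, which the labels call biological replicates without naming separate cultures. Replicate numbers were checked by the correlation of deviations from group means. In the inhibitor experiment, 18 same-number pairs gave 0.19 to 0.70 and 36 other pairs -0.68 to 0.40. In the MB-3 experiment, 3 same-number pairs gave 0.21 to 0.39 and 6 others -0.33 to 0.19. The numbers thus tended to pair these samples, with overlap in the inhibitor experiment. The 3 same-number pairs of the knockdown gave -0.48 to -0.03 and 6 others -0.25 to 0.40, so its numbers do not pair the samples. The main fits had no replicate block. Per-library values are given for called members, up to 8 in each comparison by size of change with a mean of at least 50, for the member of each complex with the largest change, and for the ratio pairs; EIF3A and, outside the comparisons that name them, EIF4B and EIF6 were added after their values were seen. The members and lists were chosen with earlier results of these data known. The script steps were tested on simulated data.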

Additional observations from a re-analysis of the deposited data

Results flagged for a closer look

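For 7 members the effect of KJ-PYR-9 differed with and without DEX by the interaction test over all genes (limma, adjusted p under 0.05), or 2 of 46 above 0 and 5 of 46 below 0, where 7.15% and 9.62% of all genes were called. The effect with DEX minus the effect without was 0.96 for EIF1AD and 0.63 for EIF4G1, and -1.18 for EIF4A2, -0.92 for EIF1, -0.89 for EIF2S2, -0.76 for EIF3J and -0.73 for EIF3H, all on the log2 scale. The adjusted p values were 0.00512, 0.0133, 0.00755, 0.00764, 0.0103, 0.0355 and 0.0369, in that order. EIF1, EIF1AD, EIF2S2 and EIF4A2 kept the call in all alternatives tried, and EIF4G1 in all but the removal of GC and length trends, where its adjusted p was 0.266. EIF3H and EIF3J lost the call when any of 9 of the 12 libraries was left out, DEX 1 and KJ-PYR-9+DEX 3 among them.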

How the results depend on the processing

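Counts of called members were compared under each alternative with those of the report. In siMYC against siCtl (3 called), DESeq2 gave 15, edgeR 11, removal of GC and length trends 9, trended and robust variance 8, a mean of at least 50 gave 7, quantile scaling 6, TMM rescaling 5 and the replicate block 0, with 0 to 8 when 1 library was left out. Of all genes, 13.7% were higher and 11.9% lower with DESeq2, 11.5% and 8.24% with edgeR, and 9.01% and 10.2% with GC and length removal. The shares were 13.8% and 7.19% with trended variance, 14.5% and 7.75% with that mean, and 9.26% and 7.37% with quantile scaling. They were 9.29% and 6.38% with TMM rescaling and 2.73% and 0.453% with the block. When 1 library was left out they were 2.59% to 14.5% and 0.331% to 12.5%. In KJ-PYR-9 against VEH (23 called), GC and length removal gave 15 and leaving out 1 library 13 to 18. Of all genes, 12.2% were then higher and 10.7% lower with that removal, and 16.5% to 24.5% and 8.47% to 15.4% without 1 library. In DEX against VEH (5 called), the replicate block gave 23, DESeq2 16, edgeR 12, trended variance 11, quantile scaling 11, a mean of at least 50 gave 10, a pseudocount of 8 gave 8 and GC and length removal 1, with 1 to 15 when 1 library was left out. In KJ-PYR-9+DEX against VEH (20 called), leaving out DEX 1 and KJ-PYR-9+DEX 3 gave 9, GC and length removal 6 and the groups fitted alone 1, with 3 to 19 when 1 library was left out. The shares of all genes higher and lower were, in that order, 11.8% and 9.87%, 7.3% and 4.53%, and 6.39% and 5.28%. When 1 library was left out they were 5.57% to 18.5% and 4.54% to 19.8%. For DEX against VEH without 1 library they were 3.48% to 14.55% and 2.84% to 12.04%. In KJ-PYR-9+DEX against DEX (35 called), GC and length removal gave 14 and leaving out 1 library 31 to 34. Of all genes, 16.9% were then higher and 15.3% lower with that removal, and 29.1% to 33.9% and 31.0% to 35.3% without 1 library. For the interaction (7 called), the replicate block gave 18, DESeq2 11 and GC and length removal 4, with 5 to 8 when 1 library was left out. MB3 gave 0 under every alternative run. Quantile scaling changed the split to 10 higher and 15 lower in KJ-PYR-9 against VEH, 4 and 7 in DEX against VEH, and 3 and 14 in KJ-PYR-9+DEX against VEH. With the block the calls were 18 higher and 13 lower in KJ-PYR-9 against VEH, 12 and 16 in KJ-PYR-9+DEX against VEH, 17 and 20 in KJ-PYR-9+DEX against DEX and 0 in MB3. In total these are within 1.5 times the counts without it, while the lower calls, 8 and 10 against VEH without it, grew by more, as did those of edgeR and DESeq2 in KJ-PYR-9 against VEH, with 15 higher and 14 lower each. There 26.8% of all genes were lower with edgeR and 26.0% with DESeq2. In KJ-PYR-9+DEX against DEX with the block, 37.1% of all genes were higher and 38.2% lower. EIF5A2 turned its sign after GC and length removal, to 0.036 in KJ-PYR-9+DEX against VEH and 0.19 in KJ-PYR-9+DEX against DEX, neither called, and the report names the other members that did. Quantile scaling turned EIF3B and EIF5A in KJ-PYR-9 against VEH and EIF4G1 in KJ-PYR-9+DEX against VEH, none then called. The causes were not tested. The count of non-overlapping ratios stayed at 25 with a pseudocount of 8, an alternative chosen after seeing the data.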

Other observations

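The 3 noncoding members had low counts in the inhibitor experiment. EIF3J-DT, divergent to EIF3J, had 18.1 to 31.4 normalized counts in KJ-PYR-9+DEX, 34.5 to 40.8 in KJ-PYR-9, 27.3 to 45.8 in DEX and up to 40.6 in VEH. In the knockdown it had 95.2 to 114.9 in siMYC and 97.8 to 137.4 in siCtl, and it was not called in any comparison. EIF1AX-AS1 was at 26.7, 19.2 and 22.2 in siMYC and 23.7, 29.4 and 13.4 in siCtl, and with EIF1B-AS1 it was below the mean of 10 needed for a test in the inhibitor experiment. EIF1AX-AS1 was at 0 in 2 of 3 libraries in KJ-PYR-9+DEX and in KJ-PYR-9, and at 5.22 to 9.15 in DEX and 3.13 to 4.54 in VEH.

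Members with a pyrimidine run at the start and those without it are given side by side as counts. In KJ-PYR-9+DEX against DEX, 4 of the 17 with the run rose and 11 fell, with a median of -0.49, against 10 that rose and 6 that fell of the 22 without it, with a median of 0.26. No test of this difference was made, and GC content was not held equal between these members. In KJ-PYR-9 against VEH, 3 of the 10 tested members with CACGTG rose and 3 fell, against 10 and 4 of the 29 without it.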
